A study of Bos taurus with 30 samples.

Results

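The miR-29 family of microRNAs (miRNAs), given in the data as bta-miR-29a, bta-miR-29b and bta-miR-29c and called miR-29a, miR-29b and miR-29c here, was followed across small RNA libraries from the arcuate nucleus (ARC) of the hypothalamus of 30 Holstein-Friesian bull calves. The members were taken by name and are 3 of the 1030 miRNA rows of the deposited table, 476 of which, all 3 members among them, had enough reads to be tested. Between 2 and 12 weeks of age 15 calves received the high plane of nutrition (HI), with 1.5 kg of milk replacer in 10 litres per day and concentrates ad libitum. The other 15 calves received the moderate plane (MOD), with 0.5 kg of milk replacer in 4 litres and 0.5 kg of concentrates per day. The diets were aimed at gains of 1.0 and 0.5 kg per day respectively. The ARC was sampled once, at 12 weeks, and each calf gave 1 library, so the data hold a single age and no postnatal time course. The comparison of the diets addressed whether early nutrition altered miRNA expression in the ARC, the part of the hypothalamus in which cues of metabolic status are received.

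MiRNAs are short RNAs that bind complementary sites in messenger RNAs and lower the output of protein from them. The members of the miR-29 family share their seed, the stretch that is read first in target recognition, and are known as repressors of collagens and other genes of the extracellular matrix and of the DNA methyltransferases that methylate DNA de novo. In brain the family is known to be scarce before birth and abundant in mature neurons and astrocytes, and in neurons it restrains genes that promote cell death.

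Members of the family are transcribed in clusters. In RefSeq, on the ARS-UCD2.0 assembly, MIR29A (gene identifier 790973) and MIR29B-1 (100313105) are each other's nearest miRNA genes, lie within the long noncoding RNA LOC107131356, and have KLF14 and MKLN1 as their protein-coding neighbours. MIR29B-2 (791042) and MIR29C (791043) form the other pair, between CD34 and CD46. Mature miR-29b can therefore come from either cluster, and the table gives it as 1 row. Coordinates are not given, as the authors aligned to ARS-UCD1.2.

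Levels are given in CPM, the reads of a miRNA per 1000000 reads counted on miRNAs in its library, after the authors' scaling between libraries. A read covers a whole mature miRNA, so CPM was compared between miRNAs without a correction for length. How well each sequence was captured in the libraries was not measured, so ranks and shares between miRNAs are of reads. HI libraries held 6291376 to 21083250 reads counted on miRNAs, and MOD libraries 7026125 to 20717302. Libraries fell into 2 depth classes, with 21 libraries of up to 8988039 reads and 9 of at least 17193358 reads. As markers of neural tissue, the 6 neuronal miRNAs listed, among them miR-124a and miR-9-5p, were present, with a summed level from 15043 to 87561 CPM. The highest of them was miR-9-5p (mean 44374 CPM), and this list does not set the ARC apart from other neural tissue. In 9 calves (5 HI and 4 MOD) a list of 10 pituitary miRNAs stood far above the other 21, for example miR-375 at 3192 to 47575 CPM against 75.7 to 1268 CPM, with the exception of miR-7, whose ranges overlapped (3810 to 9594 against 1969 to 6379 CPM). The calves with the 9 lowest animal codes (7 HI and 2 MOD) stood apart from the other 21 (8 HI and 13 MOD) in many miRNAs. All 9 were among the 21 shallower libraries, so the deeper libraries held none of them. The labels attach no run, date or farm to these codes, and this class was found from the values in earlier work on these data.

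All 3 members were detected in every library. Expression of miR-29a was the highest, at 2756 ± 326 CPM (SD, n = 30), which placed it 56th in mean level among the 476 tested miRNAs. For miR-29c it was 920 ± 141 CPM (SD, n = 30), 88th in level. For miR-29b it was 557 ± 103 CPM (SD, n = 30), 113th in level. The order miR-29a, miR-29c, miR-29b held within each of the 30 libraries. The members together took from 0.257% to 0.587% of the reads counted in a library. Of the family total, miR-29a held 65.2 ± 2.02%, miR-29c 21.7 ± 1.50% and miR-29b 13.1 ± 1.52% (SD, n = 30). The ratio of miR-29a to miR-29c ranged from 2.53 in MOD calf A47825 to 3.53 in HI calf A17855, and that of miR-29a to miR-29b from 3.71 in MOD calf A51980 to 6.81 in HI calf A37824.

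On the deposited scale miR-29a varied least of the members between calves. Its highest calf stood at 1.70 times its lowest, against 1.78 times for miR-29c and 2.17 times for miR-29b. The SD over the calves on the log2 scale was 0.18 for miR-29a, 0.23 for miR-29c and 0.27 for miR-29b, whereas the median over all tested miRNAs was 0.37. Only 27 of the 476 tested miRNAs varied less than miR-29a, while 84 varied less than miR-29c and 121 less than miR-29b. The tested miRNAs reach down to a mean of 1.14 CPM, and spread was not compared at matched level. The spread depended on the scaling. With library size alone the log2 SDs were 0.33 for miR-29a, 0.40 for miR-29c and 0.45 for miR-29b, beside a median of 0.45 over the tested miRNAs, and the coefficients of variation were 21.7%, 25.7% and 29.3%. The order of the members was the same, but 135, 206 and 232 miRNAs then varied less than them. Upper quartile scaling went the other way, with log2 SDs of 0.13 for miR-29a, 0.20 for miR-29c and 0.26 for miR-29b, and with 1, 34 and 93 miRNAs varying less. Counting error was small beside the spread under each scaling. Reads behind the values ran from 14012 to 70419 per library for miR-29a, from 4008 to 22915 for miR-29c and from 2058 to 14286 for miR-29b. This gives a counting error of at most 0.845%, 1.58% and 2.20% of the level respectively, where the calves varied by 11.8%, 15.4% and 18.6% (coefficient of variation). Close relatives in sequence can share reads, and how reads matching more than 1 row were assigned is not given in the sources used here. The recovered reads of miR-29a and miR-29c lay within 0.1 of a whole number in all 30 libraries, and those of miR-29b in 16. In the other libraries miR-29b lay midway between whole numbers, as with 4304.5 reads in MOD calf A12937 and 3229.5 in HI calf A17855. Whether its row is a mean or a sum over MIR29B-1 and MIR29B-2 was not tested.

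In the comparison of diets, mean levels of miR-29a, miR-29b and miR-29c were each lower in HI than in MOD calves, and none passed the threshold after adjustment. The plot of levels by diet shows the overlap of the groups. For miR-29a the lowest, median and highest HI calves had 1945, 2609 and 3193 CPM, and the lowest, median and highest MOD calves 2485, 2934 and 3302 CPM. Of the HI calves, 13 lay below the MOD median and 6 below the lowest MOD calf. HI calves averaged 2617 ± 344 CPM (SD, n = 15) and MOD calves 2896 ± 245 CPM (SD, n = 15). Fold changes are of HI relative to MOD, and that of miR-29a was 0.899 (95% interval 0.822 to 0.983), or -0.15 on the log2 scale (standard error 0.06). In limma, with Benjamini-Hochberg adjustment over the 476 miRNAs, the unadjusted p was 0.0213 and the adjusted p 0.912. Permuting the diets over the calves gave a two-sided p of 0.0156 for the mean log2 level.

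**Figure D1:**
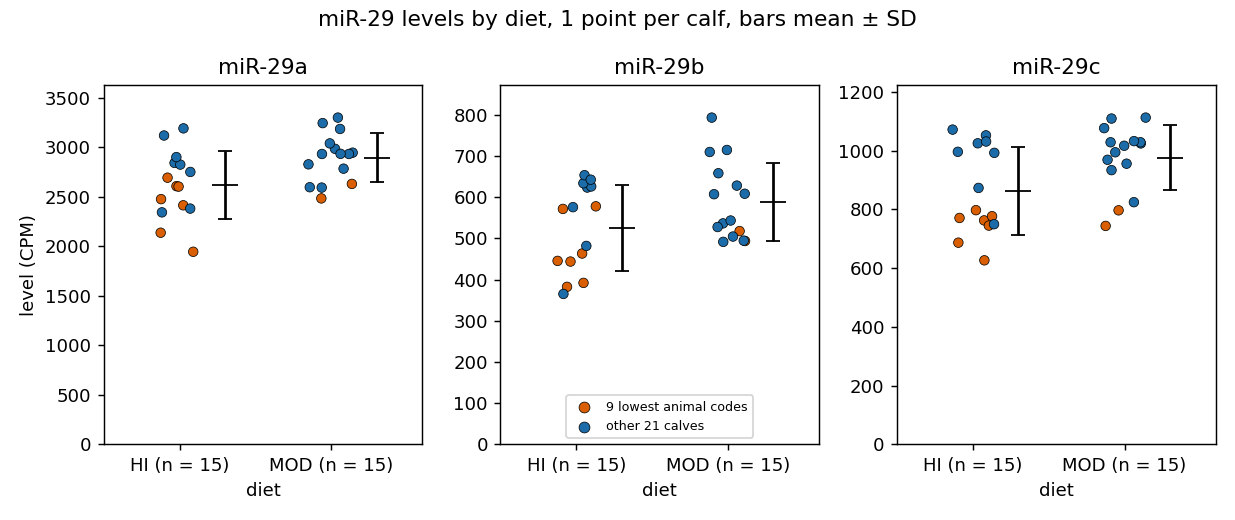
Levels in CPM (y axis, from 0) of miR-29a, miR-29b and miR-29c in the 15 HI and 15 MOD calves, 1 point per calf, with the mean ± SD as a bar beside each group. Points are coloured for the 9 lowest animal codes and the other 21 calves. The diets overlap in each panel, and 7 of the 9 lowest codes are HI calves, which sit in the lower part of the HI points for miR-29c (627 to 797 CPM).

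Expression of miR-29c ran from 627 CPM through a median of 797 CPM to 1072 CPM in HI calves, and from 744 CPM through 1017 CPM to 1113 CPM in MOD calves. Most HI calves (11) were under the MOD median, and most MOD calves (13) exceeded the HI median. HI calves averaged 864 ± 150 CPM (SD, n = 15) and MOD calves 977 ± 111 CPM (SD, n = 15). The log2 fold change was -0.19 (standard error 0.08), a fold change of 0.878 (95% interval 0.783 to 0.984), with an unadjusted p of 0.0267 and an adjusted p of 0.912 from limma. The permutation p was 0.0268.

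For miR-29b the mean and the median gave different directions. HI calves ran from 365 CPM through a median of 572 CPM to 654 CPM, and MOD calves from 492 CPM through 544 CPM to 794 CPM. Of the HI calves, 7 lay below the lowest MOD calf, and 4 MOD calves lay above the highest HI calf. HI calves averaged 525 ± 104 CPM (SD, n = 15) and MOD calves 589 ± 95.5 CPM (SD, n = 15). The log2 fold change was -0.18 (standard error 0.10), a fold change of 0.885 (95% interval 0.772 to 1.02), with an unadjusted p of 0.0798 and an adjusted p of 0.912 from limma. The permutation p was 0.0808.

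A miRNA was called where its fold change passed 1.5 and its adjusted p was below 0.1. By this rule limma called 0 of the 476 miRNAs (0%), and edgeR's quasi-likelihood test on recovered reads also called 0. DESeq2's Wald test called 1, which was no member. In limma 21 miRNAs had an unadjusted p below 0.05, in edgeR 20 and in DESeq2 21. This is 4.41% of the tested miRNAs in limma, and 2.73% were lower in HI with such a p, miR-29a and miR-29c among them. By unadjusted p in limma the members ranked 11 (miR-29a), 12 (miR-29c) and 31 (miR-29b) of 476. The 95% intervals of all 3 members lay inside a 1.5-fold change in either direction. In dissected tissue, fewer cells that express a miRNA and less of it per cell cannot be told apart.

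**Figure D2:**
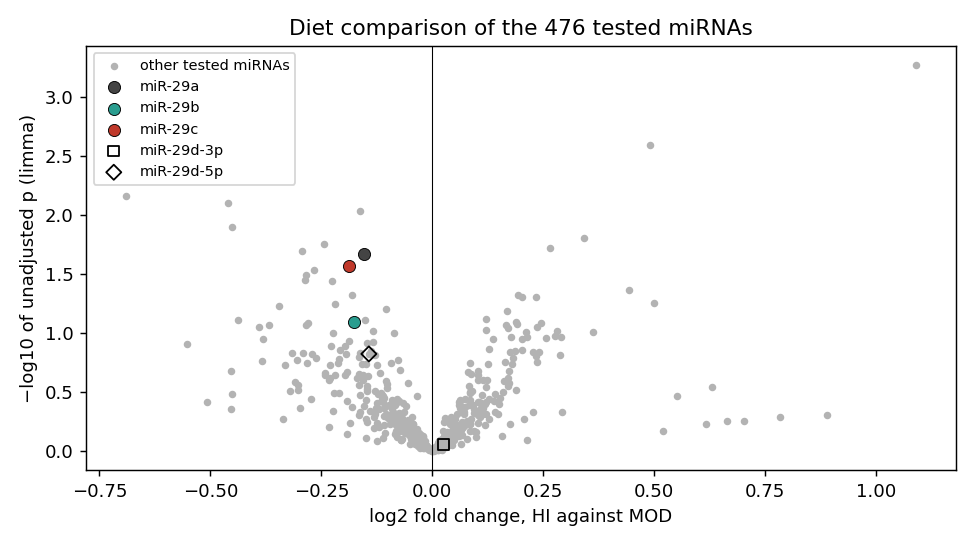
Diet difference as log2 fold change, HI relative to MOD (x axis) and −log10 of the unadjusted limma p (y axis) of the 476 tested miRNAs, with the miR-29 members and the 2 rows of miR-29d marked. The members sit close together at log2 fold changes of -0.15 to -0.19, with 10 miRNAs of smaller p than miR-29a.

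The diet difference moved with the animal code class. After this class was added to the limma model, log2 fold changes were -0.08 (standard error 0.06) for miR-29a, -0.08 (standard error 0.09) for miR-29b and -0.06 (standard error 0.06) for miR-29c. The unadjusted p-values were then 0.158, 0.376 and 0.320, and the adjusted p was 0.999 for each. Because the class was found from these values and is unevenly split over the diets, this fit cannot fully part diet from class. Within the 9 lowest codes, HI calves had 738 ± 60.3 CPM (SD, n = 7) of miR-29c and MOD calves 770 ± 37.6 CPM (SD, n = 2). Within the other 21 calves HI calves had 974 ± 109 CPM (SD, n = 8) and MOD calves 1008 ± 77.2 CPM (SD, n = 13). These differences in miR-29c were -0.07 and -0.05 on the log2 scale (exact permutation tests, p = 0.667 and p = 0.405). For miR-29a they were -0.09 and -0.08 (exact permutation tests, p = 0.500 and p = 0.189). For miR-29b they were -0.13 and -0.07 (exact permutation tests, p = 0.556 and p = 0.539). With 7 HI calves against 2 MOD calves the smallest p possible is 0.0556. When diet was permuted within the classes, an alternative chosen after seeing the data, p was 0.138 for miR-29a, 0.358 for miR-29b and 0.268 for miR-29c (permutation tests).

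**Figure D3:**
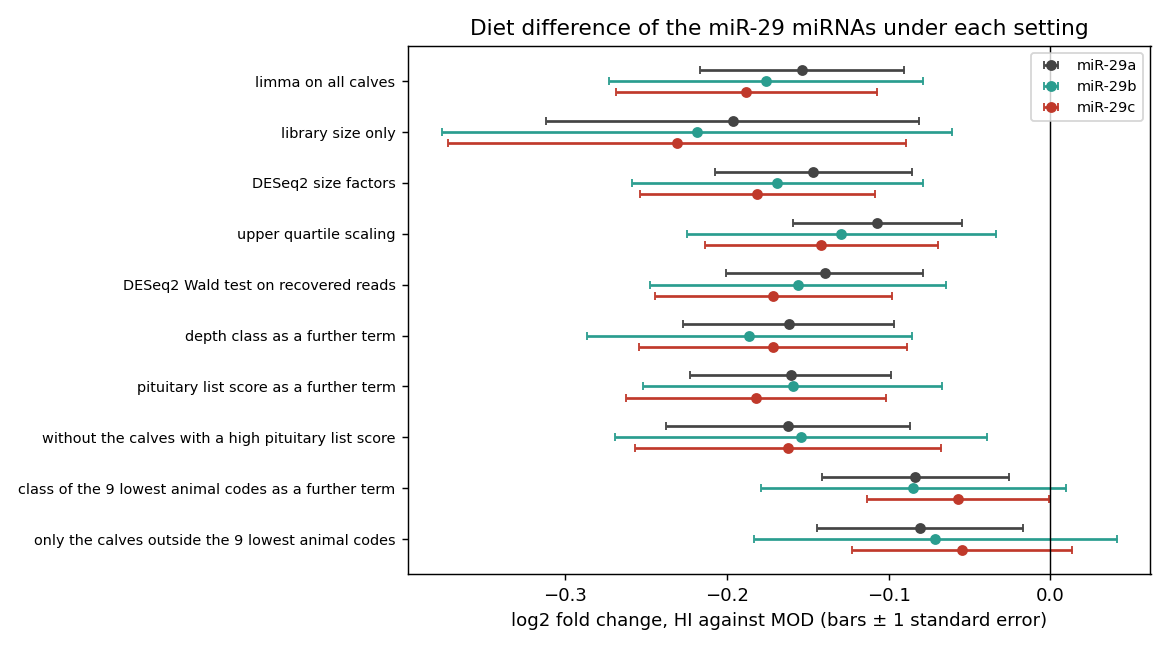
Diet difference as log2 fold change, HI relative to MOD (x axis, bars ± 1 standard error) of miR-29a, miR-29b and miR-29c under 10 settings. All points lie below 0, and those closest to 0 are the fits that add the lowest-code class or keep the other 21 calves alone (-0.05 to -0.08).

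The levels themselves were lower in the calves with the lowest codes, most so for miR-29c. Because the class was found from the values of these libraries, its differences are a description. Expression of miR-29c ran from 627 to 797 CPM in the 9 calves of the lowest codes and from 750 to 1113 CPM in the other 21. Only 1 of these 21, HI calf A42931, lay below the highest calf of the lowest codes. Mean levels of miR-29c were 745 ± 55.8 CPM (SD, n = 9) and 995 ± 89.5 CPM (SD, n = 21), a log2 difference of -0.39 (standard error 0.06) with diet in the model. For miR-29a the means were 2444 ± 249 CPM (SD, n = 9) and 2890 ± 259 CPM (SD, n = 21), a log2 difference of -0.21 (standard error 0.06). For miR-29b they were 477 ± 70.3 CPM (SD, n = 9) and 592 ± 96.7 CPM (SD, n = 21), a log2 difference of -0.27 (standard error 0.10). Both miR-29a and miR-29b overlapped between the classes, with 4 and 9 of the 21 other calves below the highest calf of the lowest codes. In this comparison 28.6% of the tested miRNAs had an adjusted p under 0.1 in limma, and 18.3% of the tested miRNAs had such a p and were lower in the lowest codes.

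**Figure D4:**
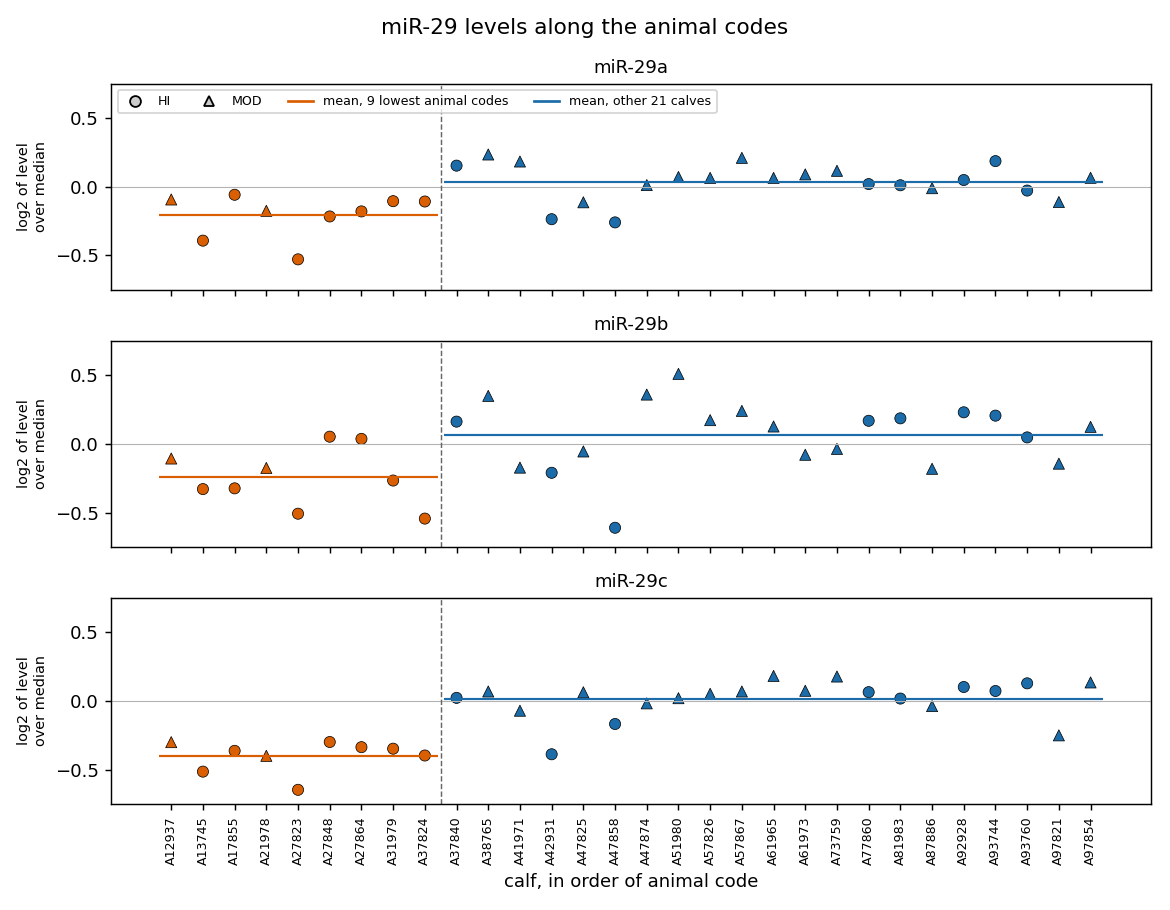
The log2 of each calf's level over the median of the 30 calves (y axis) for miR-29a, miR-29b and miR-29c, with the calves in order of animal code (x axis). Circles are HI and triangles MOD calves, horizontal lines are class means, and the dashed line parts the 9 lowest codes from the other 21. For miR-29c, 8 of the 9 lowest-code calves are among its 9 lowest levels, against 5 for miR-29a and 6 for miR-29b.

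The balance of members differed along the codes and also with the pituitary list. The ratio of miR-29a to miR-29c was 3.28 ± 0.179 (SD, n = 9) in the lowest codes and 2.91 ± 0.236 (SD, n = 21) in the others. All 9 calves of the lowest codes lay above the median of the others, and 2 lay above the highest of them, both with a high pituitary list (A17855 and A37824). In the 9 calves with a high list the ratio was 3.26 ± 0.247 (SD, n = 9) against 2.92 ± 0.222 (SD, n = 21). Within the lowest codes it was 3.44 ± 0.0908 (SD, n = 4) with a high list and 3.15 ± 0.103 (SD, n = 5) without, and within the other codes 3.12 ± 0.242 (SD, n = 5) and 2.85 ± 0.201 (SD, n = 16). Between depth classes, it was 3.10 ± 0.247 (SD, n = 21) in shallower and 2.84 ± 0.265 (SD, n = 9) in deeper libraries, and 2.97 ± 0.207 (SD, n = 12) in the shallower libraries outside the lowest codes. Of the family total, miR-29c held 20.4 ± 0.568% (SD, n = 9) in the lowest codes and 22.3 ± 1.41% (SD, n = 21) in the other codes. The ratio of miR-29a to miR-29b was 5.60 ± 0.705 (SD, n = 9) with a high pituitary list and 4.81 ± 0.601 (SD, n = 21) without. By code it was 5.21 ± 0.832 (SD, n = 9) in the lowest codes and 4.97 ± 0.681 (SD, n = 21) in the others. Differences in these ratios and shares were not tested. Summed levels of the other lists overlapped between the code classes, with a higher median in the lowest codes for each list given here. The let-7 list summed to 63314 to 87979 CPM (median 72204) in the lowest codes and 53851 to 72981 CPM (median 60241) in the others. The 2 endothelial miRNAs summed to 17514 to 27576 CPM (median 21604) and 12707 to 25018 CPM (median 18158). The 6 miRNAs of fibroblasts and vessel wall summed to 88557 to 241673 CPM (median 109406) and 34804 to 316891 CPM (median 79263). The 6 neuronal miRNAs summed to 15043 to 87561 CPM (median 67709) and 22755 to 82397 CPM (median 58484). The 3 oligodendrocyte miRNAs summed to 1254 to 11332 CPM (median 2591) and 1811 to 5800 CPM (median 2322), and no list had a member at 0 in all libraries. High pituitary lists were seen in 4 calves of the lowest codes, and the ranges of the list overlapped, at 2325 to 100739 CPM (median 7130) and 2289 to 84373 CPM (median 5550). Apart from the pituitary list, the part of these lists in the miR-29 levels was not tested.

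The comparison of depth classes depended on the lowest codes, all of which were sequenced at the shallower depth. With diet alone in the model, the log2 difference of the deeper against the shallower libraries was -0.04 (standard error 0.07) for miR-29a, -0.05 (standard error 0.11) for miR-29b and 0.08 (standard error 0.09) for miR-29c. Adjusted p-values from limma were 0.960, 0.979 and 0.926, and 0 of the 476 miRNAs (0%) had an adjusted p under 0.1. With the code class added after seeing the data, the differences were -0.14 (standard error 0.06), -0.18 (standard error 0.10) and -0.07 (standard error 0.06), so that miR-29c turned from higher to lower in the deeper libraries. The unadjusted p-values were then 0.0291, 0.0924 and 0.271 and the adjusted p-values 0.606, 0.752 and 0.838 (limma, Benjamini-Hochberg), with again 0 of the 476 miRNAs (0%) called. Outside the lowest codes, miR-29a had 2747 ± 299.7 CPM (SD, n = 9) in deeper and 2997 ± 165 CPM (SD, n = 12) in shallower libraries. Likewise miR-29b had 555 ± 102 and 620 ± 85.9 CPM, and miR-29c 974 ± 130 and 1012 ± 39.7 CPM. In the 21 shallower libraries, 12 from HI and 9 from MOD calves, the log2 difference between diets was -0.15 for miR-29a, -0.13 for miR-29b and -0.17 for miR-29c (p = 0.0768, 0.313 and 0.118 by exact permutation). Within the 9 deeper libraries the differences were -0.20, -0.34 and -0.18 (p = 0.0714, 0.143 and 0.286 by exact permutation), from 3 HI and 6 MOD calves, where the smallest p possible is 0.0238. The interaction of diet and depth class gave unadjusted p-values of 0.693, 0.351 and 0.950 in limma for miR-29a, miR-29b and miR-29c.

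The diet difference was also followed against the pituitary list. In the 9 calves with a high list, miR-29a ran from 2382 to 3246 CPM, miR-29b from 383 to 659 CPM and miR-29c from 744 to 1110 CPM, all within the range of the other 21 calves. Within these groups the list score had Pearson's r of 0.257 with miR-29a, -0.428 with miR-29b and 0.134 with miR-29c in the high calves (exact permutation tests, p = 0.500, 0.244 and 0.722, n = 9). Spearman coefficients were 0.217, -0.300 and 0.217 (exact permutation tests, p = 0.581, 0.437 and 0.581). With the 2 most extreme scores removed, r was -0.496, -0.807 and -0.430. In the other 21 calves r was 0.027, -0.163 and 0.024 (permutation tests, p = 0.928, 0.478 and 0.942) and Spearman coefficients were -0.064, -0.219 and -0.078 (permutation tests, p = 0.788, 0.338 and 0.739). Without the 2 farthest, r was 0.056, -0.151 and 0.083. Over the 6 relations the adjusted p was 0.942 for every r and 0.788 for every Spearman coefficient. Without the 9 calves of high list, the log2 fold changes between diets were -0.16, -0.15 and -0.16 for miR-29a, miR-29b and miR-29c (unadjusted p = 0.0425, 0.193 and 0.10 from limma).

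Levels of the members rose and fell together across the calves. For miR-29a and miR-29c, Pearson's r of log2 levels was 0.825 and the Spearman coefficient 0.736 (permutation tests, p = 2e-05 for both, the smallest that the permutations can give, n = 30). For miR-29a and miR-29b, r was 0.680 (permutation p = 4e-05) and the Spearman coefficient 0.681 (permutation p = 8e-05). For miR-29b and miR-29c, r was 0.695 (permutation p = 4e-05) and the Spearman coefficient 0.661 (permutation p = 6e-05). Over the 3 pairs, the adjusted p was at most 4e-05 for r and 8e-05 for the Spearman coefficient. With the 2 calves most distant from the first member's median removed, r was 0.735, 0.605 and 0.725 respectively. All values share the scaling of their library. The plot of pairs shows the 2 code classes apart along miR-29c.

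Within the code classes, r was lower than over all calves for each pair in the 21 other calves, and was higher for miR-29a with miR-29c in the lowest codes, differences that were not tested. In the 21 other calves r was 0.634 for miR-29a with miR-29c, 0.630 for miR-29a with miR-29b and 0.518 for miR-29b with miR-29c (permutation tests, p = 0.00508, 0.00368 and 0.0318, adjusted over 6 relations 0.0152, 0.0152 and 0.0448). Spearman coefficients were 0.432, 0.506 and 0.319 (permutation tests, p = 0.0527, 0.0201 and 0.154, adjusted 0.105, 0.0603 and 0.230). Without the 2 farthest calves r was 0.304, 0.332 and 0.510. In the 9 calves of the lowest codes r was 0.877, 0.299 and 0.682 (exact permutation tests, p = 0.0190, 0.445 and 0.0374, adjusted 0.0379, 0.445 and 0.0448) and Spearman coefficients were 0.417, 0.083 and 0.80 (exact permutation tests, p = 0.270, 0.843 and 0.0138, adjusted 0.323, 0.843 and 0.0603). Without the 2 farthest, HI calves A27823 and A13745 in the relations of miR-29a, r was -0.206, -0.682 and 0.619. The relations of miR-29a in the lowest codes therefore rested on these 2 calves, which had its lowest levels, 1945 and 2138 CPM.

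**Figure D5:**
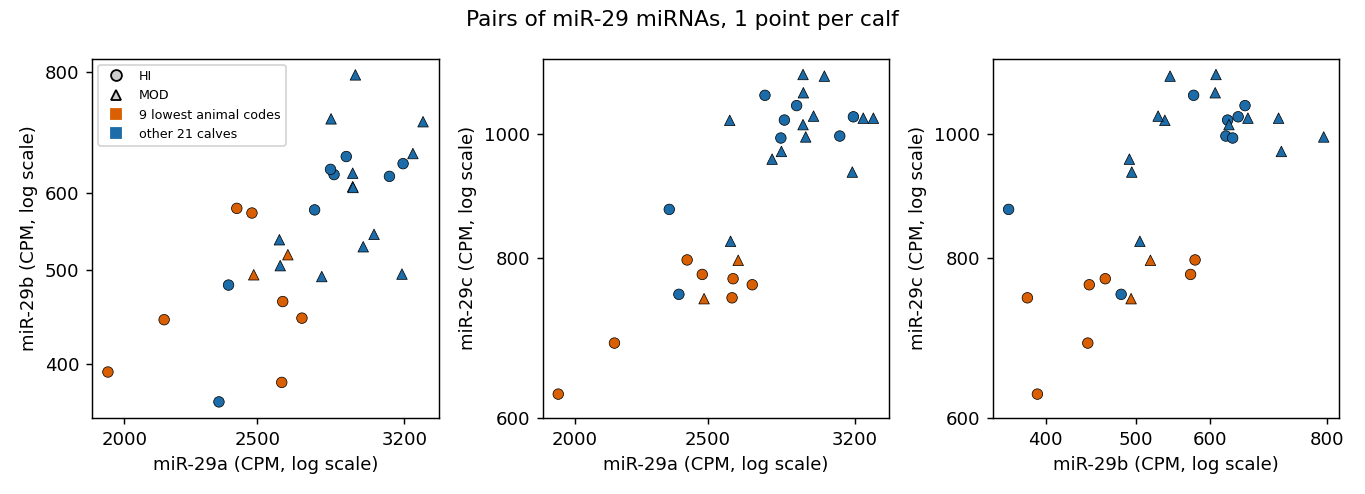
Levels of each pair of members in CPM (both axes on a log scale), 1 point per calf, with circles for HI and triangles for MOD calves and colour for the 9 lowest animal codes and the other 21 calves. The members rise together (Pearson's r of 0.680, 0.825 and 0.695 from left to right), and along miR-29c the lowest codes lie under nearly all other calves.

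The miRNAs whose log2 levels most resembled each member over the 30 calves were ranked by Pearson's r, as a description, since all share scaling and code classes. For miR-29c these were miR-494 (r = 0.927), miR-193a-3p (0.921), miR-331-3p (0.878), miR-188 (0.863) and miR-342 (0.854). In the 21 other calves alone the same r were 0.766, 0.741, 0.623, 0.606 and 0.435. Those most unlike miR-29c were miR-100 (r = -0.829), miR-502a (-0.796) and miR-1271 (-0.758), whose r in the 21 other calves were -0.214, -0.152 and 0.063. For miR-29a the most alike were miR-136 (0.828), miR-335 (0.827), miR-193a-3p (0.814), miR-494 (0.797) and miR-30b-5p (0.781), and miR-29c itself ranked 3rd among all tested miRNAs. The most unlike miR-29a were miR-181b (-0.815), miR-93 (-0.810) and miR-181a (-0.810). In the 21 other calves r with miR-29a was 0.786 for miR-136, 0.698 for miR-335, 0.459 for miR-193a-3p, 0.570 for miR-494 and 0.667 for miR-30b-5p. For the most unlike it was -0.698 for miR-181b, -0.783 for miR-93 and -0.677 for miR-181a. For miR-29b the most alike were miR-377 (0.828), miR-758 (0.795), miR-369-3p (0.783), miR-137 (0.782) and miR-874 (0.781). These had r of 0.817, 0.646, 0.600, 0.611 and 0.654 in the 21 other calves. The most unlike miR-29b were let-7a-5p (-0.844), miR-1468 (-0.820) and miR-181a (-0.816), with r of -0.770, -0.677 and -0.819 in the 21 other calves. Both clusters of the family hold a copy of miR-29b, and neither miR-29a nor miR-29c was among the 15 miRNAs most like it, as they ranked 21st and 16th.

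The table also held 3 rows named for other genes of the family. RefSeq lists MIR29D and MIR29E next to each other, inside LOC518224 and beyond CD46 from MIR29C. The more abundant arm was miR-29d-5p, at 143 ± 26.3 CPM (SD, n = 30), while miR-29d-3p had 5.22 ± 1.82 CPM (SD, n = 30). With 0.331 to 2.13 CPM, miR-29e did not pass the filter. Between the diets, the log2 fold change was -0.14 for miR-29d-5p (adjusted p = 0.912 from limma) and 0.03 for miR-29d-3p (adjusted p = 0.985 from limma). Along the animal codes the arms differed in opposite directions. In the lowest codes miR-29d-5p had 117 ± 17.3 CPM (SD, n = 9) against 154 ± 21.2 CPM (SD, n = 21) in the others. By contrast, miR-29d-3p had 6.70 ± 2.36 CPM (SD, n = 9) against 4.58 ± 1.07 CPM (SD, n = 21). The row of miR-29d-3p rested on 28 to 122 reads per library. Its levels also differed with the pituitary list, at 6.50 ± 2.45 CPM (SD, n = 9) with a high list and 4.67 ± 1.16 CPM (SD, n = 21) without. Its highest levels were in A17855, A37824 and A31979, all of the lowest codes and with a high list. The part of the list in this difference between codes was not tested. Over the 30 calves, r of miR-29d-3p was 0.198 with miR-29a, -0.019 with miR-29b and -0.155 with miR-29c, whereas in the 21 other calves alone it was 0.732, 0.606 and 0.592. For miR-29d-5p the r were 0.355, 0.667 and 0.611 over the 30 calves and -0.145, 0.420 and 0.021 in the 21. Reads of these rows may overlap those of the members, as noted for close relatives in sequence.

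Of miRNAs with related roles, 7 known or proposed to act on DNA methyltransferases were listed, and all 7 were tested. None passed the thresholds, and 1, miR-342, had an unadjusted p under 0.05 in limma. Of these, 5 had a log2 fold change below 0, as did 50.6% of all tested miRNAs. Their median was -0.02, with the largest differences in miR-143 (-0.27) and miR-342 (-0.27). The 9 members of the let-7 family, which like miR-29 is known to rise as neurons mature, had a median log2 fold change of 0.04, and 1 of them was below 0. The largest were let-7i (0.10) and miR-98 (0.09). All 6 neuronal miRNAs were below 0, with a median of -0.15, the largest in miR-138 (-0.38) and miR-137 (-0.23), and none had an unadjusted p under 0.05. Of the 6 fibroblast and vessel wall miRNAs, 4 were below 0, with a median of -0.14, and miR-145 (-0.46) had an unadjusted p of 0.00797. Both endothelial miRNAs, miR-126-3p (-0.09) and miR-126-5p (-0.07), were below 0, with a median of -0.08. Both tested oligodendrocyte miRNAs, miR-338 (0.12) and miR-219-5p (0.10), were above 0, with a median of 0.11. The 8 pituitary miRNAs tested were above 0, with a median of 0.64 and the largest in miR-200a (0.89) and miR-182 (0.78). Across all 476 tested miRNAs the median was -0.00 and the smallest adjusted p of a listed miRNA was 0.878 (limma, Benjamini-Hochberg).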

How the data were processed

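Small RNA was sequenced from the ARC of 30 calves, 1 library per calf, and diets were taken from the sample labels. Adapters and reads outside miRNA length were removed by the authors with Cutadapt, other bovine short RNAs were filtered out, and known miRNAs were counted with miRDeep2 and Bowtie on ARS-UCD1.2. The library kit in the labels (stranded RNA) differs from that in the methods (small RNA). The signal values the authors deposited are decimals in the form of CPM over TMM-scaled library sizes, with totals of 825695 to 1429908 per library. Reads were recovered from the smallest step between values. Of values under 200 reads, 94.5% to 97.9% came out within 0.02 of a whole read. Values were tested as log2(CPM + 0.25) with limma (lmFit, eBayes with trend) on the 476 of 863 detected miRNAs that edgeR's filterByExpr kept on recovered reads. Fold changes are on this scale. Permutation tests used 100000 resamples (20000 within code classes), or all arrangements where a group had under 10 calves. The pituitary score is the mean of median-centred log2 levels over 10 miRNAs, and its groups come from clustering into 2. Of 30 libraries, 9 were deeper. Intervals cover the spread between calves, and counting errors cover counting only. The code was tested on simulated counts. The miRNAs named are the members, other miR-29 rows, the 5 most and 3 least alike each member, and the 2 largest differences of each of 7 lists. Members and lists were chosen with earlier results of these data known. Alternatives covered scaling, pseudocount, filter, test, further terms and leaving out calves. Software was R 4.3.3, limma 3.58.1, edgeR 4.0.16, DESeq2 1.42.0, Python 3.11.15 and scipy 1.17.1.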

Additional observations from a re-analysis of the deposited data

How the results depend on the processing

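The 3 diet differences kept their direction, lower in HI, under the 15 alternatives that changed a setting and in the 30 fits that each dropped 1 calf, and none passed the thresholds in any of them. Log2 fold changes lay between -0.20 and -0.08 for miR-29a, -0.22 and -0.07 for miR-29b, and -0.23 and -0.05 for miR-29c over the former, and between -0.17 and -0.12, -0.20 and -0.14, and -0.22 and -0.16 over the latter. The smallest adjusted p over all these fits was 0.482. All of them compare means, and the median of miR-29b was higher in HI than in MOD calves (572 against 544 CPM). The values nearest 0 came from the 21 calves outside the lowest codes, a setting chosen after seeing the data, as was the fit with both class terms (-0.09, -0.10 and -0.06). Scaling by library size alone gave -0.20, -0.22 and -0.23, with unadjusted p of 0.0991, 0.175 and 0.113 (limma). Mean levels moved by less than 1 SD with library size or DESeq2 scaling, while the spread between calves moved by over 1.5 times with library size alone (coefficient of variation of 21.7% for miR-29a). The depth class difference of miR-29c, 0.083 with diet in the model, reversed to -0.071 with the code class as a further term and to -0.071 in the 21 calves outside the lowest codes, both added after seeing the data. Those of miR-29a and miR-29b stayed below 0 in all 4 alternatives (down to -0.14 and -0.18). The count of miRNAs past the thresholds was 1 with DESeq2's Wald test in place of 0, and ranged from 0 to 1 when each calf was left out, the count of 1 arising on removal of either A77860 (HI) or A97854 (MOD). No paired analysis was possible because each calf belongs to 1 diet and the labels tie no HI calf to a MOD calf.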
